A study of Homo sapiens with 5 samples.

Results

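The genes described here encode the machinery that builds the melanosome and carries it through the pigment cell. They are 32 named genes, taken as a fixed list of subunits of the BLOC, AP-3 and HOPS complexes, of Rab GTPases and of motor proteins, and all 32 were found by Ensembl identifier among the 31029 genes counted in both cell lines. Total RNA was sequenced after lentiviral shRNA silencing of BPTF, a subunit of the NURF chromatin remodeller, and puromycin selection, in 2 libraries of 501Mel cells, a human melanoma line, and in 3 libraries of Hermes 3A cells, a line of untransformed human melanocytes. All 5 libraries carry shBPTF, each group is a single cell line, and no library with a control shRNA was analysed here, so that every difference below lies between the lines in the silenced state and none measures the effect of the silencing. Per the study's methods 501Mel cells grew in RPMI with serum, while the medium of Hermes 3A cells also held TPA, cholera toxin, stem cell factor and endothelin-1. The cell line, its transformed or untransformed state and its medium cannot be told apart in these libraries. The labels do not say which of the study's shBPTF constructs was used or whether replicates came from separate infections, so that p-values measure only the spread between these libraries, which may be technical.

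The targeted gene was measured first. BPTF had 2832 and 2189 counts in 501Mel cells and 1906, 2110 and 1628 counts in Hermes 3A cells. As CPM, the count scaled to the total of its library, these were 61.8 ± 5.65 (SD, n = 2) and 50.5 ± 4.30 (SD, n = 3), a difference that did not pass the test (log2 fold change 0.23, standard error 0.14, edgeR adjusted p = 0.211). Libraries held between 30073071 and 43032311 counts. At the shallowest of them 3 counts, the limit that a count of 0 allows for counting error only, correspond to 0.0998 CPM, and the members' mean levels lay between 6.84 and 826 CPM. The melanocyte label was checked on MITF, SOX10, PMEL, MLANA, TYR, TYRP1 and DCT, whose summed level was 12718 to 19661 CPM in 501Mel cells and 31651 to 32728 CPM in Hermes 3A cells. PMEL and TYRP1 made up most of this sum. DCT went the other way, with 7.37, 8.83 and 13.1 CPM in Hermes 3A cells against 1068 and 1300 CPM in 501Mel cells. MITF, given below, was also higher in both 501Mel libraries, without a call. The 6 fibroblast markers summed to 78.3 to 189.8 CPM in Hermes 3A cells, against 4.31 to 18.9 CPM in 501Mel cells. The direction of that sum came from COL1A2, with 69.5, 180.1 and 187 CPM in Hermes 3A cells, while each of the other 5 was highest in 501Mel replicate 1, at 0.163 to 8.34 CPM. The haematopoietic markers, carried by CD68, summed to 34.4 to 95.3 CPM in 501Mel cells against at most 0.269 CPM in Hermes 3A cells, with PTPRC at 0 or near 0 throughout. The single keratinocyte marker counted in both lines, KRT10, had 32.7 and 34.1 CPM in 501Mel cells, below its 43.2 to 47.4 CPM in Hermes 3A cells (log2 fold change -0.49, edgeR adjusted p = 0.035), a call lost without 501Mel replicate 1 or 2 and without Hermes 3A replicate 2 or 3 (edgeR adjusted p from 0.0579 to 0.126). The 2 endothelial markers summed to at most 0.612 CPM. As these are bulk libraries, fewer cells of a type and less RNA per cell cannot be told apart. The part of these transcripts in the differences below was not tested.

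Melanosomes are lysosome-related organelles that arise from endosomes. Their enzymes are sorted on endosomal tubules by the adaptor complex AP-3 and by BLOC-1 and BLOC-2, complexes named for the biogenesis of lysosome-related organelles, and are delivered by Rab32 and Rab38, which BLOC-3 switches on. HOPS tethers endosomal and lysosomal membranes under the control of Rab7. Once pigmented, the organelle is held in the cell periphery by Rab27A, which recruits melanophilin (MLPH) and through it the actin motor myosin Va (MYO5A). Loss of BLOC or AP-3 subunits can cause Hermansky-Pudlak syndrome, loss of the Rab27A, melanophilin or myosin Va link causes Griscelli syndrome, and loss of LYST causes Chediak-Higashi syndrome, all with reduced pigmentation. Several of these genes lie under MITF, the master transcription factor of the melanocyte, which binds E-box letters such as CACGTG and CATGTG. MITF itself had 702 and 854 CPM in 501Mel cells and 643, 674 and 678 CPM in Hermes 3A cells, with no difference called (log2 fold change 0.17, standard error 0.16, edgeR adjusted p = 0.433).

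Promoter sequences show where such letters lie next to the start sites. RefSeq windows of GRCh38.p14, each with 250 bases before and 50 after a start site, were at hand for 25 of the 32 members, and both strands were searched. CACGTG was found for 7 of the 25 genes (BLOC1S1, BLOC1S3, HPS3, HPS5, VPS11, MLPH and ATP7A) and CATGTG for 4 (BLOC1S3, AP3S1, HPS4 and LYST). Of all 35116 windows of this length, 7.26% held CACGTG and 11.1% held CATGTG. Of the 14280 genes with a window that were counted in both lines, 11.2% and 11.4% had at least 1 window with these letters. Stretches of 5 members are shown from 70 bases before to 10 bases after that site, 5′ to 3′ on the strand of the gene, with the E-box in capitals, because they set MLPH and LYST, which differed between the lines, beside BLOC1S1, HPS3 and VPS11, which were not called.
MLPH (chr2:237487181-237487260, plus strand): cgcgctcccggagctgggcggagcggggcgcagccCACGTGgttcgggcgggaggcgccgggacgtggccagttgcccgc
LYST (chr1:235883704-235883783, minus strand): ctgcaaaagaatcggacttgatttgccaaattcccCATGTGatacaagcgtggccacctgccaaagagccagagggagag
BLOC1S1 (chr12:55715976-55716055, plus strand): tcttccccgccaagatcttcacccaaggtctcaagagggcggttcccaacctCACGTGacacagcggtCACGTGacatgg
HPS3 (chr3:149129568-149129647, plus strand): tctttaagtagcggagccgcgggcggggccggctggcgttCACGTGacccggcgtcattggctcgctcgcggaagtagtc
VPS11 (chr11:119067748-119067827, plus strand): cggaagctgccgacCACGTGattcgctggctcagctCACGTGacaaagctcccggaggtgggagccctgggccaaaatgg
The E-box of MLPH begins 35 bases before the start site and that of LYST likewise 35 bases before it, with a window of the same gene that puts it at 40. For MLPH this RefSeq start site lies inside the gene as located below, which begins at base 237485428. BLOC1S1 and VPS11 each show 2 copies. A further window of VPS11 holds the second of its copies again, 229 bases before another start site. A match of letters is a description of the sequence and not a site of binding, and windows reach no further than 250 bases.

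Between the lines, the machinery did not move as a block. Called members, those with an edgeR adjusted p of at most 0.05 over all 17918 genes tested, numbered 14 of 32 (43.8%), of which 12 were lower in 501Mel cells and 2 higher. Of all genes tested 48.4% were called, 24.1% as lower and 24.3% as higher in 501Mel cells, so that the share of called members was close to that of all genes. With a change of at least 2-fold as well, 9 members were lower (LYST, HPS1, BLOC1S2, MLPH, MYO5A, VPS39, VPS18, RAB32 and RAB27A) and 1 was higher (BLOC1S5), against 17.1% and 17.2% of all genes (34.3% in both directions, beside 10 of 32 members). This split of 9 and 1 was 6 and 2 without 501Mel replicate 1, and 2 members were higher under 7 of the 11 alternatives. The median log2 fold change of the members was -0.34, beside 0.02 for all genes tested. CPM values of the lines did not overlap for 22 of the 32 members, 16 with 501Mel lower and 6 with 501Mel higher, while 69.9% of all genes showed no overlap, 31.9% with 501Mel lower and 38% with 501Mel higher. All 32 members passed the filter on low counts.

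**Figure D1:**
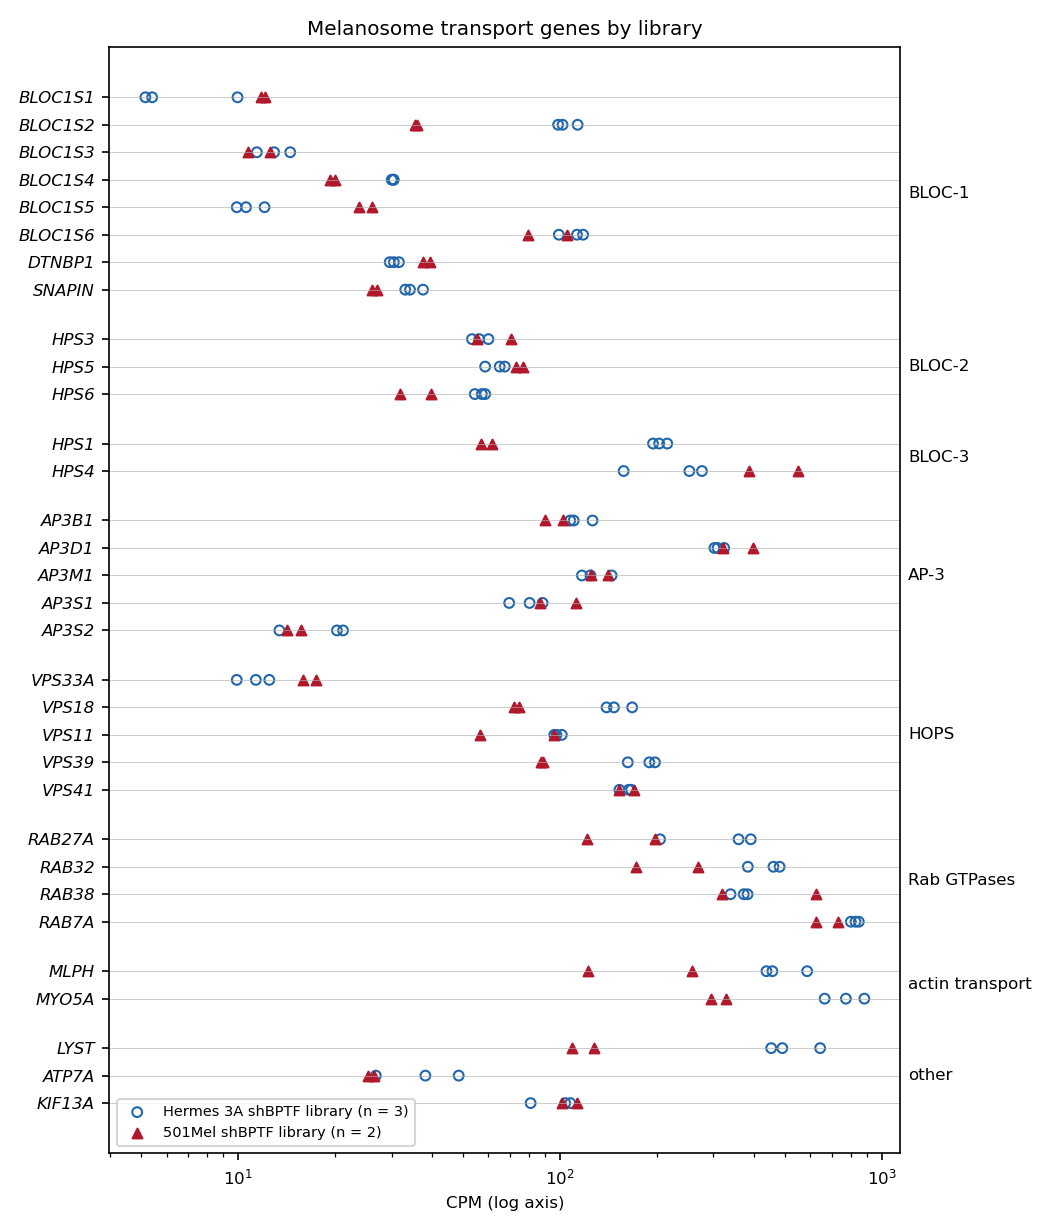
CPM of each of the 32 genes on a log axis, with 1 triangle per 501Mel shBPTF library (n = 2) and 1 circle per Hermes 3A shBPTF library (n = 3), grouped by complex. LYST, HPS1, BLOC1S2 and MYO5A have both triangles left of all circles, while VPS41 and AP3M1 overlap.

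BLOC-3, the exchange factor that loads Rab32 and Rab38 with GTP, consists of HPS1 and HPS4, and both were called, in opposite directions. HPS1 (ENSG00000107521, chromosome 10 of GRCh38, from 98416198 to 98446947) had 56.9 and 61.3 CPM in 501Mel cells and 195, 216 and 203 CPM in Hermes 3A cells. The lines were far apart and each held its values closely. HPS1 was thus 3.61-fold lower in 501Mel cells (log2 fold change -1.85, standard error 0.14, edgeR adjusted p = 0.000106). HPS4 (ENSG00000100099, chromosome 22, from 26443423 to 26483837) went the other way, with 387 and 550 CPM in 501Mel cells and 158, 276 and 253 CPM in Hermes 3A cells. Its groups did not overlap, but both lines spread widely, and the 1.97-fold higher level in 501Mel cells (log2 fold change 0.98, standard error 0.25, edgeR adjusted p = 0.0157) lost its call without 501Mel replicate 2 (log2 fold change 0.68, edgeR adjusted p = 0.106). A ratio of counts within a library needs no scaling between libraries, and gene length cancels when such ratios are compared between lines. The log2 ratio of HPS1 over HPS4 was -2.76 and -3.16 in 501Mel cells against 0.30, -0.36 and -0.31 in Hermes 3A cells, a 7.17-fold difference between the lines (-2.84 on the log2 scale, exact two-sided permutation p = 0.1, 0.14 when adjusted over 7 ratios). A p of 0.1 is the smallest that 2 libraries against 3 can give.

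The Rab GTPases that BLOC-3 serves did not move together. RAB32 (ENSG00000118508, chromosome 6, from 146543693 to 146554965), which with its paralogue delivers tyrosinase to the maturing melanosome, had 173 and 269 CPM in 501Mel cells and 384, 482 and 461 CPM in Hermes 3A cells. All 501Mel values lay below all Hermes 3A values, and RAB32 was 2.08-fold lower (log2 fold change -1.06, standard error 0.22, edgeR adjusted p = 0.00714). RAB38 (ENSG00000123892, chromosome 11, from 88113242 to 88175467) had 319 and 626 CPM in 501Mel cells, below and above its 339, 373 and 383 CPM in Hermes 3A cells. Its difference was not called (log2 fold change 0.31, standard error 0.27, edgeR adjusted p = 0.374) and rested on single libraries, being 0.72 without 501Mel replicate 1 (edgeR adjusted p = 0.0227) and -0.29 without 501Mel replicate 2 (edgeR adjusted p = 0.264). Within each library, however, the 2 paralogues could be set against each other. The log2 ratio of RAB32 over RAB38 was -0.88 and -1.22 in 501Mel cells against 0.18, 0.37 and 0.27 in Hermes 3A cells. The ratio was below 0 in both 501Mel libraries and above 0 in all 3 Hermes 3A libraries, a 2.50-fold difference (-1.32 on the log2 scale, exact two-sided permutation p = 0.1, adjusted 0.14). RAB7A, the late endosomal GTPase that recruits HOPS, had 625 and 730 CPM in 501Mel cells against 802, 849 and 829 CPM, without a call (log2 fold change -0.35, standard error 0.16, edgeR adjusted p = 0.111).

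The transcripts of all 3 parts of the tripartite complex that tethers melanosomes to actin were called lower in 501Mel cells, beside 24.1% of all genes tested. The call of RAB27A did not hold under every alternative, and protein was not measured. MLPH (ENSG00000115648, chromosome 2, from 237485428 to 237555318), the linker whose E-box is shown above, had 122 and 258 CPM in 501Mel cells and 438, 586 and 457 CPM in Hermes 3A cells. It was 2.70-fold lower (log2 fold change -1.43, standard error 0.32, edgeR adjusted p = 0.00936), with a size that depended on the 501Mel library, at -0.996 without replicate 1 and -2.10 without replicate 2. MYO5A (ENSG00000197535, chromosome 15, from 52307283 to 52529050), the motor, had 294 and 328 CPM in 501Mel cells and 665, 774 and 883 CPM in Hermes 3A cells. It was 2.60-fold lower and its 501Mel libraries were close to each other (log2 fold change -1.38, standard error 0.18, edgeR adjusted p = 0.000987). RAB27A (ENSG00000069974, chromosome 15, from 55202966 to 55319113), the GTPase on the melanosome, had 122 and 198 CPM in 501Mel cells and 205, 359 and 392 CPM in Hermes 3A cells. The highest 501Mel value and the lowest Hermes 3A value of RAB27A nearly met, and its call (log2 fold change -1.05, standard error 0.31, edgeR adjusted p = 0.0286) was lost without 501Mel replicate 1 (edgeR adjusted p = 0.161), without Hermes 3A replicate 2 (0.0575) and without Hermes 3A replicate 3 (0.0695). The proportions of the 3 partners were not shown to differ between the lines. The log2 ratio of MYO5A over RAB27A was 1.27 and 0.73 in 501Mel cells against 1.70, 1.11 and 1.17 in Hermes 3A cells (difference -0.33, exact permutation p = 0.6), and that of MLPH over RAB27A was 0.01 and 0.38 against 1.10, 0.71 and 0.22 (difference -0.48, exact permutation p = 0.3), with overlapping values for both.

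LYST differed most of all members in absolute log2 fold change. This gene (ENSG00000143669, chromosome 1, from 235661041 to 235883640), whose large protein controls the size of lysosomes and lysosome-related organelles, had 109 and 127 CPM in 501Mel cells and 453, 491 and 644 CPM in Hermes 3A cells. It was 4.67-fold lower in 501Mel cells (log2 fold change -2.22, standard error 0.21, edgeR adjusted p = 0.000263), and its log2 fold change stayed between -2.37 and -2.07 under the 11 alternatives that were run. The members grouped with LYST outside the complexes, ATP7A and KIF13A, were not called. ATP7A, the copper transporter that loads tyrosinase, had 25.4 and 26.5 CPM in 501Mel cells and 26.8, 38.2 and 48.5 CPM in Hermes 3A cells. It was not called (log2 fold change -0.60, edgeR adjusted p = 0.077), but it was called without Hermes 3A replicate 1 (log2 fold change -0.80, edgeR adjusted p = 0.0128) and without the filter on low counts (-0.64, edgeR adjusted p = 0.0457). The fit blocked on replicate number gave -0.37 (edgeR adjusted p = 0.21). KIF13A, the kinesin that pulls out the endosomal tubules, had 101 and 113 CPM against 81.1, 104 and 108 CPM (log2 fold change 0.07, standard error 0.15, edgeR adjusted p = 0.717).

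**Figure D2:**
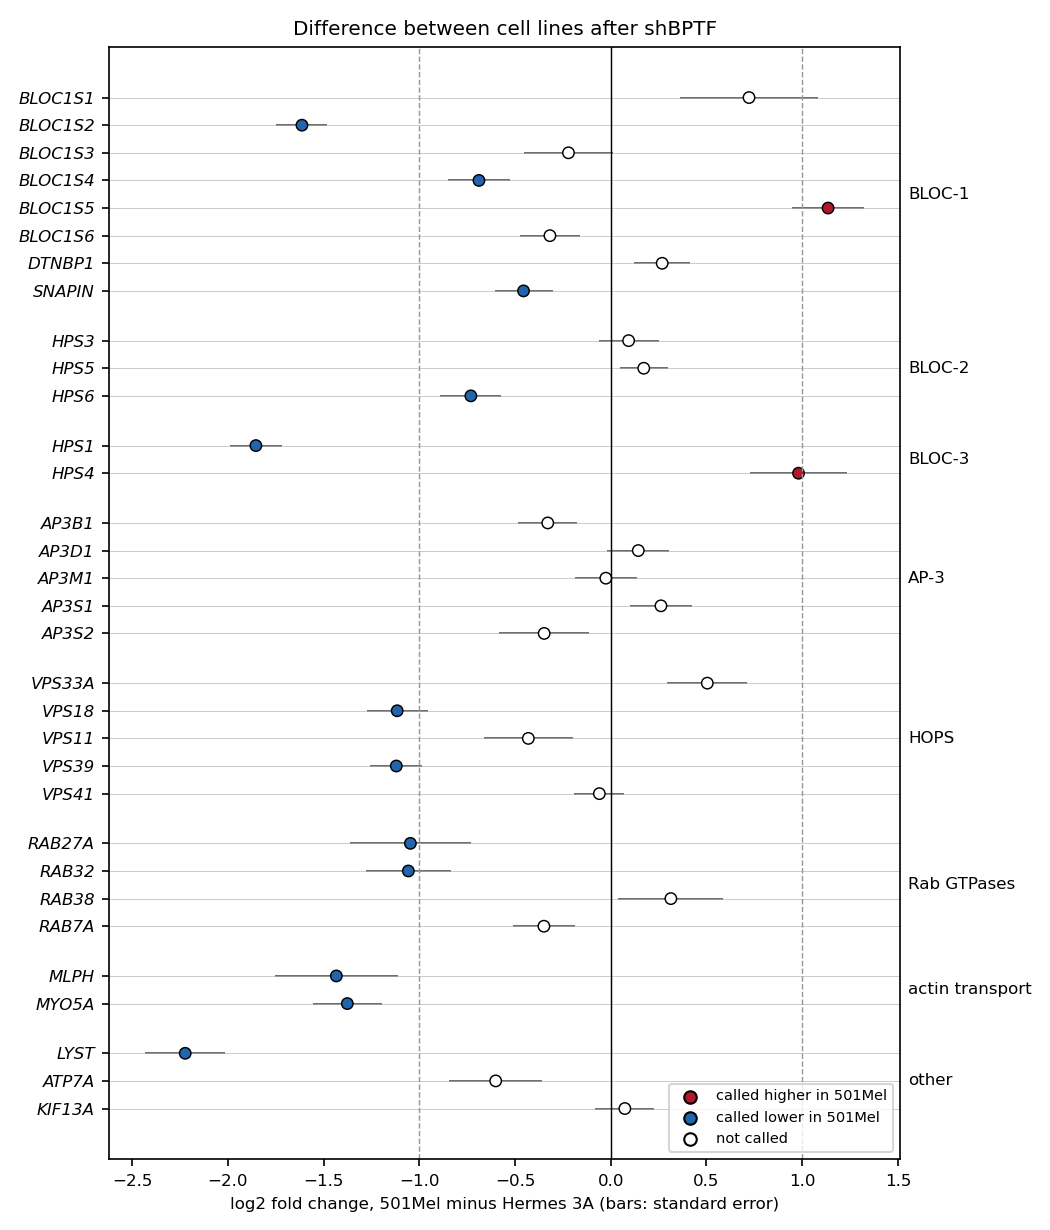
Log2 fold change of each gene, 501Mel minus Hermes 3A, with its standard error, grouped by complex, where filled points were called at an edgeR adjusted p of at most 0.05 and dashed lines mark a 2-fold change. HPS1 and HPS4 lie on opposite sides of 0, all 5 AP-3 genes are open points near 0, and LYST lies furthest to the left at -2.22.

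BLOC-1, which sorts cargo out of endosomes, had 4 of its 8 genes called, in both directions, beside 48.4% of all genes tested. BLOC1S2 had 36.1 and 35.4 CPM in 501Mel cells and 98.7, 114 and 102 CPM in Hermes 3A cells. Replicates were tight in both lines, and BLOC1S2 was 3.06-fold lower in 501Mel cells (log2 fold change -1.61, standard error 0.13, edgeR adjusted p = 0.000158). BLOC1S5, known in the mouse as muted, was instead 2.20-fold higher, with 26.1 and 23.8 CPM against 10.6, 12.1 and 9.91 CPM (log2 fold change 1.14, standard error 0.19, edgeR adjusted p = 0.0028). In GENCODE 29 the read-through genes BLOC1S5-TXNDC5 and EEF1E1-BLOC1S5 share 11.2% and 11.3% of its exon bases, so that some of its reads could have been split between genes. BLOC1S4 was lower, with 19.4 and 19.9 CPM against 30.0, 30.4 and 30.4 CPM (log2 fold change -0.69, edgeR adjusted p = 0.0109), and missed the threshold without 501Mel replicate 1 (edgeR adjusted p = 0.0515). SNAPIN, which also binds SNARE proteins, had 26.1 and 27.1 CPM against 33.1, 37.6 and 34.2 CPM. Its difference was small (log2 fold change -0.46, standard error 0.15, edgeR adjusted p = 0.041) and kept its call under 3 of the 11 alternatives. It was lost without each of 501Mel replicates 1 and 2 and Hermes 3A replicates 2 and 3, with edgeR adjusted p values from 0.0809 to 0.141.

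The other 4 BLOC-1 subunits were not called. DTNBP1, which encodes dysbindin, had 37.6 and 39.4 CPM in 501Mel cells, above its 29.6 to 31.6 CPM in Hermes 3A cells (log2 fold change 0.27, standard error 0.15, edgeR adjusted p = 0.168). BLOC1S6, which encodes pallidin, and BLOC1S3 had overlapping values, with log2 fold changes of -0.32 and -0.22. BLOC1S1 had 12.1 and 11.8 CPM in 501Mel cells and 9.96, 5.41 and 5.15 CPM in Hermes 3A cells (log2 fold change 0.72, edgeR adjusted p = 0.138), and was called higher in 501Mel cells only without Hermes 3A replicate 1 (log2 fold change 1.12, edgeR adjusted p = 0.00924). The read-through gene BLOC1S1-RDH5 shares 29.8% of its exon bases. As BLOC1S1 and BLOC1S2 lay on opposite sides, their log2 count ratio was -1.57 and -1.59 in 501Mel cells against -3.31, -4.39 and -4.30 in Hermes 3A cells, a 5.34-fold difference (2.42 on the log2 scale, exact two-sided permutation p = 0.1, adjusted 0.14).

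BLOC-2, which steers the tubules to melanosomes, had 1 of its 3 genes called, beside 48.4% of all genes tested. HPS6 had 39.8 and 31.8 CPM in 501Mel cells and 57.2, 54.4 and 58.6 CPM in Hermes 3A cells. It was lower in 501Mel cells (log2 fold change -0.73, standard error 0.16, edgeR adjusted p = 0.00835), at the edge of the threshold without 501Mel replicate 2 (edgeR adjusted p = 0.0524). HPS3 and HPS5 had log2 fold changes of 0.09 (standard error 0.16) and 0.17 (standard error 0.12) and were not called. CP lies on the other strand over 22.7% of the exon bases of HPS3. Among the members described below, VCL likewise lies over 18.8% of those of AP3M1 and ATG12 over 11.8% of those of AP3S1. On the same strand, AC048338.1, which was not counted in either line, shares 21.5% of those of VPS33A. Whether the counting used strand is not given in the sources used here.

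AP-3, the coat that sorts tyrosinase from endosomes, showed no called subunit, beside 48.4% of all genes tested that were called. Of its 5 genes 0 were called by edgeR, 0 by DESeq2 and 0 at an unadjusted edgeR p under 0.05, and their log2 fold changes ran from -0.35 for AP3S2 to 0.26 for AP3S1, with standard errors between 0.15 and 0.23. AP3D1, the large delta subunit, had 321 and 399 CPM in 501Mel cells and 324, 309 and 302 CPM in Hermes 3A cells, and AP3B1, the beta subunit mutated in a form of Hermansky-Pudlak syndrome with immune defects, had 102 and 89.7 CPM against 126, 110 and 108 CPM. AP3M1, the medium subunit, had 141 and 125 CPM against 145, 124 and 117 CPM. For the small subunits, AP3S1 had 86.5 and 112 CPM against 69.6, 88.4 and 80.5 CPM, and AP3S2 had 15.7 and 14.2 CPM against 13.4, 21.2 and 20.3 CPM. AP3S2 was called lower in 501Mel cells without Hermes 3A replicate 1 (log2 fold change -0.52, edgeR adjusted p = 0.0447), and it shares 21.1% of its exon bases with the read-through gene C15orf38-AP3S2. The log2 count ratios of AP3S1 over AP3S2 and of AP3D1 over AP3B1 did not overlap between the lines, but differed by only 0.58 and 0.46 (exact two-sided permutation p = 0.1 for each, adjusted 0.14). Both differences depended on the 501Mel library. For AP3S1 over AP3S2 it was 0.32 without 501Mel replicate 2 and 0.84 without replicate 1, and for AP3D1 over AP3B1 it was 0.21 and 0.71.

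HOPS, which tethers organelles before fusion, had 2 of its 5 listed genes called, both lower in 501Mel cells. Of all genes tested 48.4% were called, 24.1% as lower. VPS39, which sits at an end of the complex, had 88.8 and 87.1 CPM in 501Mel cells and 163, 190 and 197 CPM in Hermes 3A cells (log2 fold change -1.12, standard error 0.14, edgeR adjusted p = 0.000775). VPS18, a subunit of the core, had 71.8 and 74.8 CPM against 168, 140 and 147 CPM (log2 fold change -1.12, standard error 0.16, edgeR adjusted p = 0.00149). For both genes the 501Mel libraries lay close together and well below Hermes 3A cells. VPS41, the subunit at the end opposite to VPS39, did not share the difference, with 153 and 170 CPM against 153, 164 and 166 CPM (log2 fold change -0.06, standard error 0.13). VPS33A, which binds SNARE proteins, pointed the other way with 17.5 and 15.9 CPM against 11.4, 12.5 and 9.91 CPM, without a call (log2 fold change 0.50, standard error 0.21, edgeR adjusted p = 0.0834). VPS11 had 56.4 and 96.0 CPM in 501Mel cells and 101, 96.1 and 97.6 CPM in Hermes 3A cells, without a call (log2 fold change -0.43, standard error 0.23, edgeR adjusted p = 0.164). Its difference rested on the 501Mel library, at -0.0964 without replicate 1 (edgeR adjusted p = 0.683) and -0.90 without replicate 2 (edgeR adjusted p = 0.0128).

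**Figure D3:**
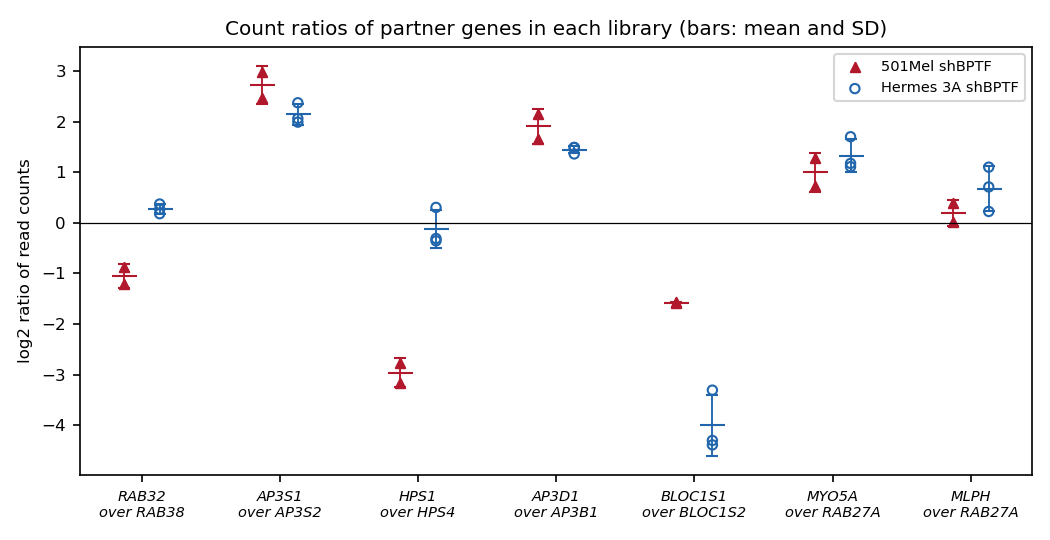
Log2 ratio of the read counts of paired genes in each library, with triangles for 501Mel shBPTF, circles for Hermes 3A shBPTF and bars for mean and SD. RAB32 over RAB38 is below 0 in both 501Mel libraries and above 0 in all 3 Hermes 3A libraries, and HPS1 over HPS4 differs by -2.84 between the means.

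Set against the E-boxes, the differences showed no simple order. Of all genes tested, with or without these letters, 48.4% were called. Of the 7 members with CACGTG in a window 1 was called (MLPH), with a median log2 fold change of -0.22, and of the 18 members whose windows lacked it 10 were called, with a median of -0.35. For CATGTG, 2 of 4 were called, in opposite directions (LYST lower and HPS4 higher). RAB27A, RAB32 and MYO5A, all lower in 501Mel cells, had neither set of letters in the windows that were searched, and no window was at hand for RAB38 and HPS1. The numbers are small and are given as a description.

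Further genes of the same transport routes were also tested. Of 50 such genes (AP-1 adaptors, SNAREs, further Rab proteins, myosins and their linkers) 48 passed the filter, and 25 were called (52.1%, beside 48.4% of all genes), 18 as lower and 7 as higher in 501Mel cells, with a median log2 fold change of -0.30 over a range from -5.24 to 3.44. RABGGTA, a subunit of the enzyme that attaches the lipid anchor to Rab proteins, was lower at 24.4 ± 0.841 CPM (SD, n = 2) against 69.2 ± 5.76 CPM (SD, n = 3; log2 fold change -1.57, edgeR adjusted p = 0.000334). AP1S1, a small subunit of AP-1, and RAB11B, a GTPase of recycling endosomes, had log2 fold changes of -1.32 and -1.25 and were lower as well. AP1S3, another small subunit of AP-1, had 5.79 and 1.93 CPM in 501Mel cells and was lower (log2 fold change -2.02, edgeR adjusted p = 0.0102), at -3.01 without 501Mel replicate 1 and -1.46 without replicate 2. CD63, a tetraspanin of melanosome precursors, was also lower (log2 fold change -1.06, edgeR adjusted p = 0.0112), a call lost without 501Mel replicate 1 (edgeR adjusted p = 0.0689). The called genes of the list that were higher in 501Mel cells fell in number to 3 without 501Mel replicate 2, Hermes 3A replicate 2 or Hermes 3A replicate 3.

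Relatives of RAB27A and MYO5A and linkers of Rab27 on this list did not move in 1 direction. RAB27B, the paralogue of RAB27A, had 3 counts in each 501Mel library and 325 counts in all in Hermes 3A cells, a ratio of 38.9 with a 95% counting interval of 17.7 to 107 (edgeR adjusted p = 0.000893). Counting intervals are of pooled counts and cover counting error only, so that they leave out the larger spread between libraries. MYO5B, a relative of MYO5A, had 9 and 1 counts in the 501Mel libraries against 319 in all in Hermes 3A cells (pooled ratio 22.9, 95% counting interval 12.3 to 48.3, edgeR adjusted p = 0.00287). The fitted log2 fold change of MYO5B was -4.58, and it was -6.64 without 501Mel replicate 1 and -3.83 without replicate 2. MYRIP, a linker of Rab27A to myosins, had 5 counts against 65 (ratio 9.34, 95% counting interval 3.80 to 29.7, edgeR adjusted p = 0.0174), and its call was lost without 501Mel replicate 1 (edgeR adjusted p = 0.117) and without 501Mel replicate 2 (0.0688). EXPH5, a Rab27 effector, was the opposite, with 3.81 ± 0.267 CPM in 501Mel cells and 0.335 ± 0.0841 CPM in Hermes 3A cells (log2 fold change 3.44, edgeR adjusted p = 0.000638). MYO5C and the Rab27 effector SYTL2, named here after their values were seen, were not called (log2 fold changes -1.04 and 0.45, edgeR adjusted p = 0.0594 and 0.127), and MYO7A did not pass the filter.

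Genes of the cargo and of the lysosome were tested as well. Their counts stand beside 48.4% of all genes called, 24.1% as lower in 501Mel cells and 24.3% as higher. Of 9 pigment genes 7 were called, 5 as lower and 2 as higher in 501Mel cells, with a median log2 fold change of -0.98 over a range from -3.07 to 7.23. Without 501Mel replicate 1 the count of called genes was 4, of which 2 were lower. SLC45A2, a transporter of the melanosome membrane, and the enzyme gene DCT were the higher genes, with log2 fold changes of 7.23 and 6.87, and OCA2, a melanosomal anion channel, was lowest (log2 fold change -3.07, edgeR adjusted p = 0.000129). PMEL, which forms the fibrils of the melanosome, and MLANA were lower, with log2 fold changes of -1.39 and -1.22. Both lost their call without 501Mel replicate 1 (edgeR adjusted p = 0.0837 and 0.106), and PMEL also without Hermes 3A replicate 3 (0.0707) and in the fit blocked on replicate number (0.0579). Of 20 lysosome genes 17 were called, all as lower in 501Mel cells, with a median log2 fold change of -0.97, and all 20 log2 fold changes were below 0. The lowest was that of the protease gene CTSD at -2.99 (193 ± 63.5 against 1467 ± 61.8 CPM, edgeR adjusted p = 0.000224), followed by NPC2, a cholesterol carrier of the lysosome lumen, at -2.35, GLA at -2.09 and PSAP at -1.80. The enzyme genes GAA and TPP1 and the channel gene MCOLN1 had log2 fold changes of -1.61, -1.34 and -1.27. Whether the machinery differs from these lists was not tested.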

How the data were processed

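The authors deposited, for each library, read counts per Ensembl gene as whole numbers without normalization. Per the labels, rRNA-depleted total RNA libraries were treated with a duplex-specific nuclease, which lowers abundant cDNA and can compress differences of abundant transcripts. The submitters' processing notes name CASAVA 1.8, TopHat 1.4.1, Bowtie 0.12.7 and hg19. The counting program, annotation, strand setting and treatment of multiply mapped reads are not given in the sources used here.

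The files list 37259 genes for 501Mel and 34033 for Hermes 3A cells, and the 31029 shared genes, with 99.3% to 99.9% of the counts, were tested. Why the lists differ is not stated. CPM were computed from total counts. Groups were compared with edgeR 4.0.16 in R 4.3.3 (quasi-likelihood test, TMM, filterByExpr, Benjamini-Hochberg adjustment), with standard errors taken from the F statistic, and DESeq2 1.42.0 as an alternative. Both fits were run on simulated counts with far fewer changed genes than were called here, which does not test them for this contrast. Ratios used scipy 1.17.1 with 0.5 added to counts. Names and gene coordinates are those of GENCODE 29 on GRCh38, promoters those of RefSeq. Replicates differed by far more than counting noise (chi-square of 19.4 or more per gene), so none was treated as a repeat of another. The members and lists were chosen with earlier results of these data known. All members are named, and of each other list at most the 8 genes called at 2-fold with the largest change, to which CD63 was added after its values were seen. The values of 1 gene that this rule names are not reported here.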

Additional observations from a re-analysis of the deposited data

How the results depend on the processing

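Of the 352 member values recomputed under 11 alternatives, 321 kept direction and side of the threshold, 14 lost a call, 6 gained a call and 11, all of uncalled genes, changed sign. The number of called members was 13 or 14 under the other normalizations, filters and DESeq2 and 12 to 17 when single libraries were left out. AP3M1 changed sign with library size scaling (0.0433) and with at least 10 counts required in every library (0.0117), VPS41 with library size scaling (0.0030), and the AP-3 median likewise (0.0433, from -0.03). When single libraries were left out, log2 fold changes ran from -0.12 to 0.26 for HPS3, -0.0501 to 0.30 for AP3D1, -0.14 to 0.0833 for AP3M1, -0.17 to 0.0181 for VPS41, -0.29 to 0.72 for RAB38 and -0.036 to 0.15 for KIF13A. Median log2 fold changes per complex, which are descriptions, ran from -0.38 to -0.15 for BLOC-1, -0.12 to 0.14 for BLOC-2, -0.14 to 0.0833 for AP-3, -0.90 to -0.10 for HOPS, -0.97 to -0.49 for the Rab GTPases and -1.79 to -1.15 for MLPH with MYO5A. Differences of log2 count ratios ran from -1.49 to -1.15 for RAB32 over RAB38 and from 0.21 to 0.71 for AP3D1 over AP3B1, and the pigment genes called from 4 to 8. The cause was not tested. Where 1 library of 501Mel cells was left out, the other is assumed to vary like the Hermes 3A libraries.

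With the replicate number as a block 13 members were called (11 lower), all among the 14, and the call of SNAPIN was lost (edgeR adjusted p = 0.112). No other call of a member changed. The lines share only replicate numbers 1 and 2, and same-numbered libraries deviated together weakly (correlations across genes of 0.105 and 0.136).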

Other observations

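The 2 libraries of 501Mel cells differed more at some transport genes than at most genes. The log2 ratio of replicate 2 over replicate 1 in CPM was 1.07 for MLPH, 0.98 for RAB38, 0.77 for VPS11, 0.70 for RAB27A and 0.64 for RAB32, genes chosen here after their values were seen, while the 95th percentile over all genes tested, computed with 0.5 CPM added, was 0.60 and the median -0.04. Over all 32 members the median was 0.07 and replicate 2 was the higher library for 20. All 9 pigment genes were higher in replicate 2, with a median log2 ratio of 0.73, among them PMEL at 0.73, MLANA at 0.91 and SLC45A2 at 0.74, while 15 of the 20 lysosome genes were higher in it, with a median of 0.17. HPS1, BLOC1S2, VPS39 and VPS18, by contrast, stayed between -0.03 and 0.11.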
